A study of Mus musculus with 36 samples.

Results

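Mesenteric lymph nodes of mice were compared after 1 day of treatment with soluble lymphotoxin-beta receptor and after phosphate-buffered saline (PBS, labelled day 0). The members were chosen from the sample titles. They are 12 of the 36 measurements in the series, 3 day 1 and 3 PBS samples on each of 2 kinds of Affymetrix array, named here array A and array B, which for the most part carry different probe sets. The other groups of the series received the receptor for 2, 3, 27 or 35 days. All groups are described only as mice, with no genotype, strain, sex or age in the sources used here, and the protein is named sLTbetaR-Ig in the series title, which reads as a fusion with immunoglobulin, while PBS carries no protein. Receptor blockade and exposure to a foreign protein therefore cannot be told apart in this comparison. The labels give no dose or route and do not say whether each sample was a mouse of its own. The p-values therefore cover the spread between samples within groups, which may be technical. That spread was estimated over all groups of the series and not from the PBS and day 1 samples alone.

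The lymphotoxin-beta receptor sits on stromal cells of lymphoid organs, and its ligands, lymphotoxin and LIGHT, are made by lymphocytes. Its signal runs mainly through the noncanonical NF-kB pathway and keeps follicular dendritic cells, which hold antigen and secrete the B cell chemokine Cxcl13, and high endothelial venules, through which lymphocytes enter the node, in their specialised state. A soluble receptor acts as a decoy that takes up the ligands. The comparison asks which transcripts of the node moved first.

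The tissue label was borne out by the defining markers. Of 19 markers of B cells, T cells, high endothelial venules, follicular dendritic cells and reticular stroma, 14 were tested and all 14 lay above their table's median on each of the 6 PBS and day 1 arrays. Cd79a of B cells, for instance, read 3196 to 3772 intensity units and Cd3e of T cells 1746 to 1915. The median intensity of an array was 272.8 to 290.8 for array A, and for array B it was 149.8 to 161.2. On array B the day 1 libraries resembled each other less than the PBS libraries did: the mean correlation of a library with the others of its group was 0.927, 0.940 and 0.953 at day 1, lowest for replicate 3, against 0.974 to 0.975 in PBS. All 6 libraries of array A lay between 0.9815 and 0.9865.

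At day 1 the desmosomal cadherin Dsc3 had fallen on both arrays, and it was the only gene named by a called probe set. Across array A 2 of 12231 tested probe sets were called (0.0164%) and across array B 1 of 12516 (0.00799%), all 3 lower, with limma and a Benjamini-Hochberg adjusted p under 0.05. In whole-node RNA, fewer cells of a type and less RNA per cell cannot be told apart. At an unadjusted p under 0.05 array A had 411 (3.36%) and array B 900 (7.19%). Most differences were small: 99.88% (array A) and 99.6% (array B) of the tested probe sets lay within 0.5 of no change on the log2 scale, and only Dsc3 on array B reached a change of 1. The directions of the small differences were not stable to scaling. Array A had 145 lower (1.19%) and 266 higher (2.17%) at the unadjusted threshold as deposited, and 222 and 184 after quantile normalization. Array B had 733 lower (5.86%) and 167 higher (1.33%) as deposited, and 489 and 389 after it.

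**Figure D1:**
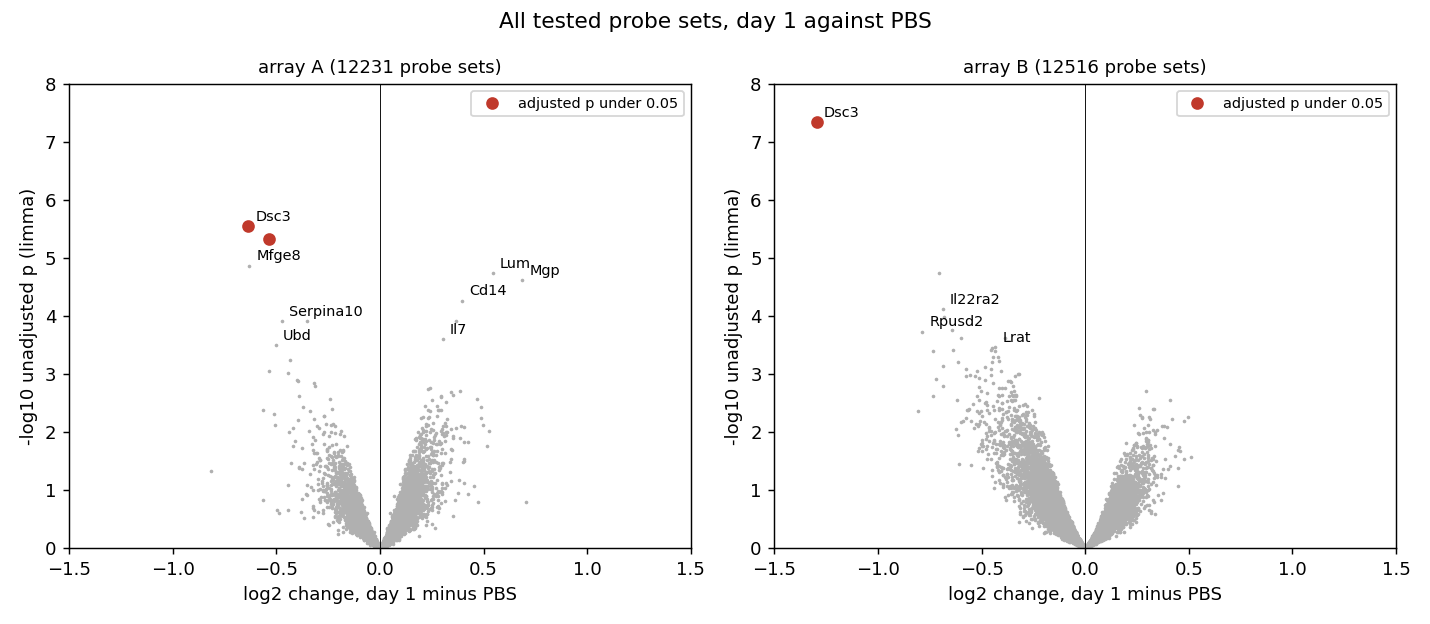
Log2 change from PBS to day 1 (x axis) against -log10 of the unadjusted limma p (y axis) for each tested probe set of array A (left) and array B (right), with called probe sets in red. The 3 called probe sets all lie to the left, Dsc3 on array B at -1.30 far from the rest, while Mfge8 on the left and Lum and Mgp on the right of array A lie just below the called ones.

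Dsc3 encodes desmocollin 3, one of the cadherins that join the cells of an epithelium at desmosomes. On array B its intensity was 314.7, 389 and 301.2 in the PBS samples and 158.4, 141.9 and 110.9 at day 1. Each day 1 sample lay below every PBS sample by a wide gap, with means of 335 ± 47.3 and 137.1 ± 24.2 (SD, n = 3 each) and a log2 change of -1.30 (SE 0.15, adjusted p = 0.000572). This call held whichever of the 6 arrays was left out (log2 change -1.41 to -1.15), including day 1 replicate 3, the library least like its group (-1.15). The separate probe set on array A read 328.5, 279.5 and 277 against 181.6, 183 and 204.1, a log2 change of -0.64 (SE 0.096, adjusted p = 0.0288). These groups did not overlap either, but the call on array A ended with any 1 of the 6 arrays left out (limma adjusted p 0.0558 to 0.246), as it did in a fit of only these groups (0.146) and with a floor at the 40th percentile (-0.40, 0.147). With the arrays also scaled to a common median, the adjusted p with 1 array left out was 0.0078 to 0.0621.

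The other called probe set on array A, 1449277_at, is listed under several gene symbols, so no gene is named from it and it counts in no gene list. It read 2970, 3027 and 2831 in PBS and 2212, 1996 and 1884 at day 1, without overlap. Its log2 change was -0.54 (SE 0.084, adjusted p = 0.0288), and this call also ended with any 1 of the 6 arrays left out (adjusted p 0.0523 to 0.246), with a floor at the 40th percentile (0.0532) and with no filter on dim probe sets (0.127). With arrays scaled to a common median before 1 was left out, a combination chosen after seeing the data, 0 to 2 probe sets were called on array A.

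The other junction genes did not pass. Of 11 tested genes of desmosomes and cell junctions 1, Dsc3, fell and 10 did not pass, with a median of -0.013 against 0.010 over all 12395 named genes, for each of which the brightest tested probe set stands, from array A where it has one. The desmosomal cadherin Dsg2 gave unlike values on its 3 probe sets. The brightest read 337.1 ± 33.4 in PBS and 332.2 ± 36.9 at day 1 (log2 change -0.02, adjusted p = 0.998), another stood at -0.21, and the last at -0.43 (adjusted p = 0.594), from 313.7, 340.3 and 330.9 to 260.2, 222.9 and 247.1. Only the last of these had groups that did not overlap.

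Among genes of follicular dendritic cells, Mfge8 had the largest difference after Dsc3, and the remaining members lay between -0.43 (Lrat) and 0.24 (Fcer2a). Of 15 tested members 1 fell (Dsc3, against 0.00807% of all named genes) and 14 did not pass. At an unadjusted p under 0.05, 6 of the 15 were lower (40%) and 1 was higher (6.67%), where 2.81% of all named genes were lower and 1.94% higher, and the list's median was -0.114. The summed intensity of the 14 members on array A was 19520 to 20670 in PBS samples and 17800 to 18410 at day 1. Without Mfge8 these sums overlapped, at 16170 to 17300 and 15620 to 16190. This list was written with earlier results of these data known, and Dsc3 was put on it for that reason, so the count is a description.

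Mfge8, a secreted bridge protein with which follicular dendritic cells tag dying B cells for uptake by macrophages, had the smallest p of any named gene after Dsc3 on array A. It read 3372, 3621 and 3354 in PBS and 2279, 2183 and 2223 at day 1. The groups lay far apart relative to their own spread (3449 ± 149 and 2228 ± 48.3, SD, n = 3 each). The log2 change of -0.63 (SE 0.11, adjusted p = 0.0557) missed the threshold as deposited. It passed after quantile normalization (adjusted p = 0.00655), scaling to a common median (0.0394), a stricter filter on dim probe sets (0.036), with array weights (0.00012) and in a fit of only these groups (0.00479). With no filter it was at 0.185 and with single arrays left out at 0.206 to 0.331.

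Other genes of these cells differed less. Lrat, which esterifies retinol for storage, read 226.8, 219 and 208.1 in PBS and 164, 154 and 165.9 at day 1 on array B, again without overlap (-0.43, SE 0.099, adjusted p = 0.36). Cxcl13, which draws B cells into follicles, read 1574, 1388 and 1408 against 1148, 1324 and 1219 on the probe set that is brightest over all 18 arrays (-0.24, adjusted p = 0.998), and its other probe set stood at -0.25. The highest day 1 value of that other probe set, 1494, lay above the lowest PBS value, 1455. The adhesion molecule Vcam1 stood at -0.18 on its brightest probe set and at -0.03 and 0.03 on the others. The secreted chaperone Clu stood between -0.22 and -0.11 on its 4 probe sets and the complement receptor Cr2 at -0.11. The low-affinity IgE receptor Fcer2a, which B cells also express, was the 1 member higher at an unadjusted p under 0.05, among 4 of 15 above 0 (0.24 and 0.18 on its probe sets, adjusted p = 0.998). None of these passed.

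**Figure D2:**
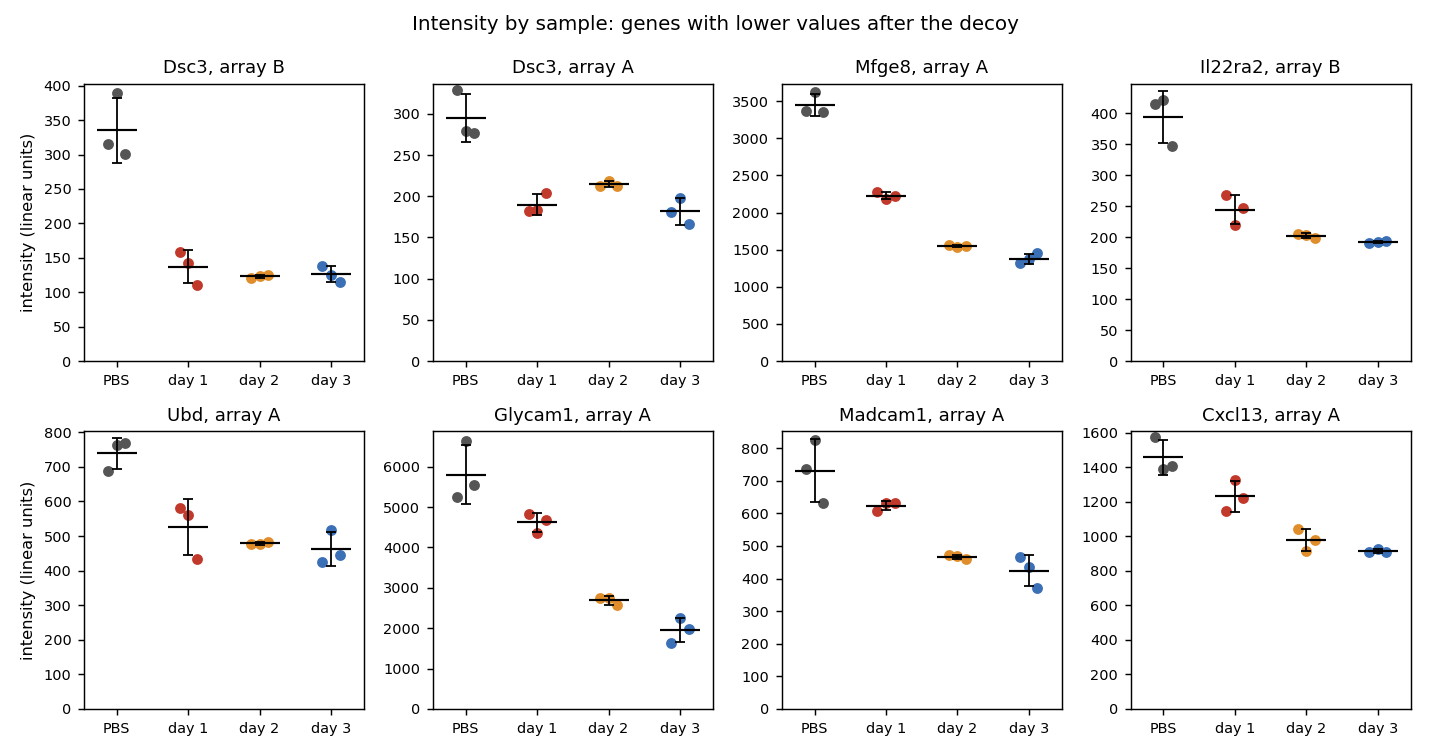
Intensity (y axis, linear units) of 8 genes in each sample of the PBS, day 1, day 2 and day 3 groups (x axis); points are samples, horizontal lines group means and bars 1 SD (n = 3). Dsc3 lies near its lowest level from day 1 on, Mfge8 lies at 2183 to 2279 at day 1 and lower on later days, and Glycam1, Madcam1 and Cxcl13 lie much closer to PBS at day 1 than at day 2.

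Genes of high endothelial venules were mixed. Of 22 listed genes 13 were tested, Chst4 and Enpp2 not among them, and 0 passed. At an unadjusted p under 0.05, 4 were lower (Ubd, Glycam1, Madcam1 and Cd300lg, 30.8%) and 2 higher (Slco2a1 and Il33, 15.4%), against 2.81% and 1.94% of all named genes. The median was 0.067 as deposited and -0.054 after quantile normalization, so the list had no stable direction. Madcam1 stands on both this list and that of follicular dendritic cells.

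Ubd, a ubiquitin-like modifier induced by inflammatory cytokines and abundant in these venules, read 688, 762.6 and 767.9 in PBS and 582.5, 561.1 and 433.2 at day 1. Every day 1 sample was below every PBS sample (-0.50, SE 0.11, adjusted p = 0.354). Glycam1, the secreted mucin that carries the L-selectin ligand, read 5239, 6627 and 5555 against 4820, 4354 and 4682 (-0.32, SE 0.12, adjusted p = 0.998). Here too the groups did not touch, but the PBS samples spanned more than the gap between them. Madcam1, the addressin bound by gut-homing lymphocytes, read 736.1, 826.4 and 632 against 606.8, 630.6 and 631 (-0.22, SE 0.10, adjusted p = 0.998), so that 1 PBS sample was level with the day 1 samples. Cd300lg, a sialomucin of venules and capillaries measured on array B, was 410.7 ± 47.2 in PBS and 342 ± 24.7 at day 1 (-0.26, adjusted p = 0.661). The alarmin Il33 was 690.7 ± 90.6 in PBS and 876.2 ± 27.3 at day 1 (0.35, adjusted p = 0.998; SD, n = 3 each), and the prostaglandin transporter Slco2a1 stood at 0.20 and 0.15 on its probe sets.

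Madcam1 and Ubd are shown with their promoters because these hold the kappaB consensus motif, the sequence bound by NF-kB dimers. The 250 bases upstream of the annotated start (RefSeq, GRCm38.p6) are given 5′ to 3′ on the gene's strand, with matches in capitals. Both strands were searched, and 7.25% of 32851 such windows in the table hold at least 1 match.
Madcam1, chr10:79664309-79664558, plus strand: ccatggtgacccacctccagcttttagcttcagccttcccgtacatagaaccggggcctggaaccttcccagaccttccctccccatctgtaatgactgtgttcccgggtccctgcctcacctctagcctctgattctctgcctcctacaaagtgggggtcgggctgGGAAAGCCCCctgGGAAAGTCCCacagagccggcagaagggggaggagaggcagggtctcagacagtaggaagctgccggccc
Ubd, chr17:37193642-37193891, plus strand: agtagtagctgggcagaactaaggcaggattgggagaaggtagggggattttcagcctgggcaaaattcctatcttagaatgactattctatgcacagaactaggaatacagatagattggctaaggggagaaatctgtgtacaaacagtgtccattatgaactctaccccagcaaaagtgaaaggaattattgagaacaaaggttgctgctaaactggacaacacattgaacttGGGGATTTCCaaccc
The 2 matches in the Madcam1 window begin 83 and 70 bases upstream of the start, on the opposite strand, and do not overlap. The match in the Ubd window begins 15 bases upstream on the gene's own strand. Of 15 genes looked up, 9 had a window in the table and 2 of these a match. The windows of Mfge8, Glycam1, Cxcl13, Lrat, Col3a1, Cxcl12 and Gsta3 hold none. Neither Madcam1 nor Ubd passed the test at day 1, and a match is a run of letters, not a measured binding site.

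Matrix genes stood higher, without passing the test. Of 35 tested genes of the extracellular matrix 0 passed, while at an unadjusted p under 0.05 there were 5 higher (14.3%) and 0 lower. All 35 are on array A, where 2.24% of 7801 genes were higher and 1.12% lower. The median was 0.107 and 29 of the 35 lay above 0, against a median of 0.024 and 4833 of 7801 above 0 for genes of array A. The summed intensity of the list was 32600 to 35010 in PBS samples and 36030 to 38850 in day 1 samples, and without Mgp, Lum and Col3a1 it was 29210 to 30980 and 31050 to 33150. Without day 1 replicate 3 the median was 0.049. Other lists leaned upward too. Above 0 lay 16 of 19 B cell genes and 34 of 43 small respiratory chain subunits. For reticular stroma array A sums also separated upward, at 9503 to 10530 in PBS and 10880 to 11280 at day 1. So did those of the interferon response (15490 to 15800, 16080 to 17220) and homeostatic chemokines and receptors (11160 to 11540, 11820 to 12450). Those of venule genes separated downward (10900 to 12610, 10220 to 10880).

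Mgp, an inhibitor of calcification secreted by fibroblasts and vessel walls, had the largest difference among them. It read 1463, 1708 and 1539 in PBS and 2575, 2303 and 2708 at day 1 (0.69, SE 0.12, adjusted p = 0.0594). Lum, a small proteoglycan that organises collagen fibrils, read 616.6, 678.1 and 582.1 against 929.9, 926.8 and 874.3 (0.54, SE 0.095, adjusted p = 0.0561). Neither gene had overlapping groups. Both were under 0.05 with a stricter filter (0.0455 for Mgp, 0.036 for Lum) and with array weights, and Mgp also in a fit of only these groups (0.0334). Both were above 0.1 with no filter and with any 1 array left out, and Lum was at 0.0752 and Mgp at 0.156 after quantile normalization. Col3a1, the chain of the fine collagen that forms the reticular network, was 1375 ± 235 in PBS and 1890 ± 194 at day 1 (0.47, SE 0.13, adjusted p = 0.998; SD, n = 3 each). The gelatinase Mmp2 stood at 0.21 and Col5a1 at 0.14.

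Reticular stroma was led by Il7 and Cxcl12. Of 11 tested genes of fibroblastic reticular cells 0 passed and 2 were higher at the unadjusted threshold (18.2%, against 2.24% of genes of array A). Il7, the cytokine on which naive T cells depend, read 585, 551.8 and 519.4 in PBS and 697, 690.1 and 655.2 at day 1, without overlap (0.30, SE 0.067, adjusted p = 0.311). Cxcl12, a chemokine for lymphocytes and progenitors, read 2347, 2606 and 2422 against 3251, 3330 and 2927 on its brightest probe set (0.37, SE 0.12, adjusted p = 0.998). A second probe set on array A gave 906.7 ± 31.1 and 1169 ± 74.6 (0.36, SE 0.075, adjusted p = 0.167; SD, n = 3 each), while that on array B stood at -0.06. The list's median was 0.051 and became -0.019 without PBS replicate 3.

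**Figure D3:**
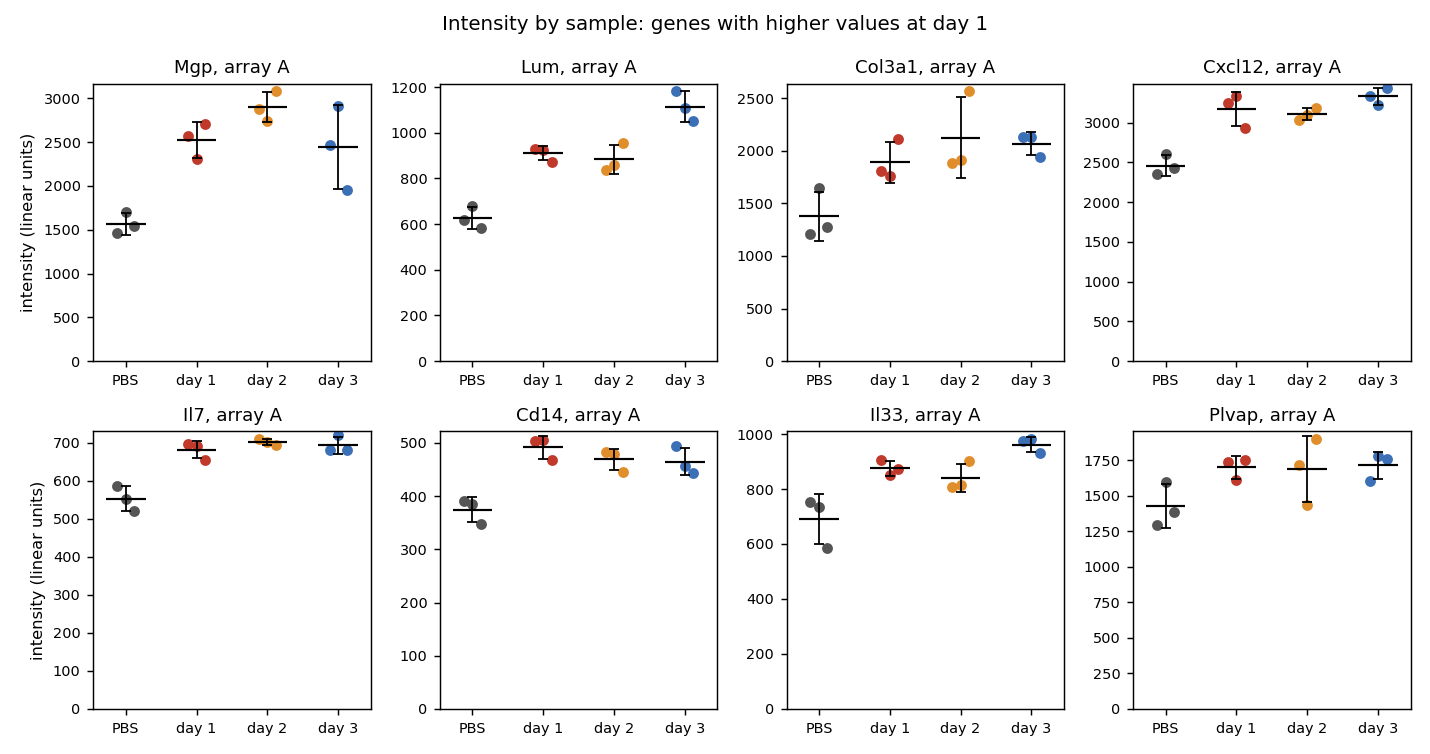
Intensity (y axis, linear units) of 8 genes in each PBS, day 1, day 2 and day 3 sample (x axis); points are samples, horizontal lines group means and bars 1 SD (n = 3). Every day 1 sample lies above every PBS sample in all 8 panels, narrowly for Plvap (1609 against 1598), and none of the 8 genes passed the test at day 1.

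Markers of neighbouring tissue were set beside the stromal values, since fat, gut and pancreas adjoin the mesenteric node. The summed intensity of 14 fat cell genes was 34120 to 37390 in PBS samples and 30040 to 35830 at day 1. Among these, the fatty acid transporter Cd36 (-0.33) and the lipid droplet protein Plin4 (-0.32) were lower and the adipogenic factor Pparg higher (0.32) at the unadjusted threshold, and 0 of 14 passed. These shares were 14.3% lower and 7.14% higher, against 1.12% and 2.24% of genes of array A. The 4 tested pancreatic genes summed to 2527 to 2882 and 2789 to 3048, 3 intestinal genes of array A to 951.1 to 1210 and 1129 to 1277 (another on array B read 290 to 363.2 and 232 to 312.4), and 7 red cell genes to 2563 to 2976 and 2591 to 2973, with 0 of 4, 0 of 4 and 0 of 7 passing. None of these ranges separated PBS from day 1. They rest on part of each list: 14 of 19 fat cell, 4 of 17 pancreatic, 4 of 16 intestinal and 7 of 16 red cell genes were tested. The part of these tissues in the stromal values was not tested.

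Genes listed for blood and lymphatic endothelium did not pass. Of 15 tested genes of blood endothelium 0 passed and 2 were higher at the unadjusted threshold (13.3%, against 2.24% of genes of array A), namely Plvap, which forms the diaphragms of fenestrae (1429 ± 154 in PBS and 1701 ± 79.4 at day 1, SD, n = 3 each), with a log2 change of 0.26, and the angiopoietin co-receptor Tie1 at 0.22. The list's median was 0.095. Of 9 tested lymphatic genes 0 passed at either threshold, and the median was 0.068. The lymphatic transcription factor Prox1 was 283.2 ± 84.2 in PBS and 337.6 ± 14.9 at day 1 on array A (0.29, SE 0.20) and stood at -0.10 on array B.

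Among myeloid genes Cd14, the endotoxin co-receptor of macrophages and monocytes, had the smallest p. It read 390, 385.9 and 348.2 in PBS and 504.2, 504.7 and 467.3 at day 1, without overlap (0.39, SE 0.076, adjusted p = 0.112). It passed after quantile normalization (0.0416), after scaling to a common median (0.0385) and with array weights (0.002). With single arrays left out it did not pass (limma adjusted p 0.206 or above). In all 0 of 24 macrophage genes passed, with a median of 0.037. At the unadjusted threshold 3 were higher (12.5%) and 2 lower (8.33%), against 1.94% and 2.81% of all named genes. Those higher were Cd14, the lectin receptor Clec4n (0.20) and the iron exporter Slc40a1 (0.38). Those lower were Timd4, with which resident macrophages bind dying cells (411 ± 35.5 and 309.4 ± 53.9 on array B, SD, n = 3 each; -0.42, adjusted p = 0.541), and the lysozyme gene Lyz2 (-0.18). Of 18 dendritic cell genes, 10 genes of class II presentation and 11 of neutrophils and mast cells 0 passed at either threshold. Since the series title reads as an immunoglobulin fusion, receptors for immunoglobulin and complement were listed too. Of 20 such genes 0 passed. At the unadjusted threshold 3 were higher (15%, against 1.94% of all named genes), Fcgr3 (0.26), Serping1 (0.15) and Fcer2a, and 0 were lower.

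The lymphocyte compartments showed no called gene. Of 19 tested B cell genes 0 passed and 1, Fcer2a, was higher at the unadjusted threshold (5.26%, against 1.94% of all named genes). Of 18 T cell genes 0 passed and 1 was lower at that threshold (5.56%, against 2.81%). Summed intensities overlapped between PBS and day 1, at 29670 to 31160 and 29770 to 34530 for 17 B cell genes of array A and 14360 to 15250 and 14330 to 15220 for 17 T cell genes. The T cell gene that stood lower was Il7r, the receptor for interleukin 7. It read 918.9, 934.7 and 1053 in PBS and 754.2, 734 and 713 at day 1, without overlap (-0.40, SE 0.10, adjusted p = 0.998), and its second probe set stood at -0.44 with overlapping samples. In the germinal centre and plasma cell list 0 of 11 passed, and the follicular repressor Bcl6 stood at 0.32 (840.2 ± 122 and 1044 ± 13.2, SD, n = 3 each). Of 8 cytotoxic cell genes 0 passed at either threshold.

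The receptor, the lymphotoxin subunits and the tested machinery of the pathway did not pass. Of 28 listed genes 21 were tested, and Tnfsf14, which encodes LIGHT, Traf3, Chuk, Nfkb1 and Rel were among those not tested. Of 21 tested genes of lymphotoxin signalling and NF-kB 0 were called and 0 had an unadjusted p under 0.05 in limma, with log2 changes from -0.17 to 0.18 and a median of 0.029. For 3 of the 21, Nfkb2 among them, every day 1 sample lay below every PBS sample, and for 0 above. Over the 7801 genes of array A these counts were 285 and 586. Ltbr, the receptor gene, read 747.5, 680.3 and 492.1 in PBS and 633.1, 656.8 and 712.5 at day 1 (0.08, SE 0.13). The PBS samples alone spanned the day 1 samples, and the sign turned without PBS replicate 3 (-0.10). The ligand subunits Ltb (0.18, SE 0.11) and Lta (0.14, SE 0.11) and the noncanonical factors Nfkb2 (-0.17, SE 0.098, and -0.03 on another probe set) and Relb (-0.14, SE 0.095) each had an adjusted p of 0.998. The adhesion molecule Icam1 stood at 0.05 (SE 0.082). Of 13 tested homeostatic chemokines and receptors 0 passed. At the unadjusted threshold Cxcl13 was lower (7.69%) and Cxcl12 and Ccr6 (0.19) were higher (15.4%), against 2.81% and 1.94% of all named genes. Ccl19, Ccl21a, Ccl20 and Ackr3 of this list had no tested probe set under 1 gene symbol, so the count does not cover them.

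**Figure D4:**
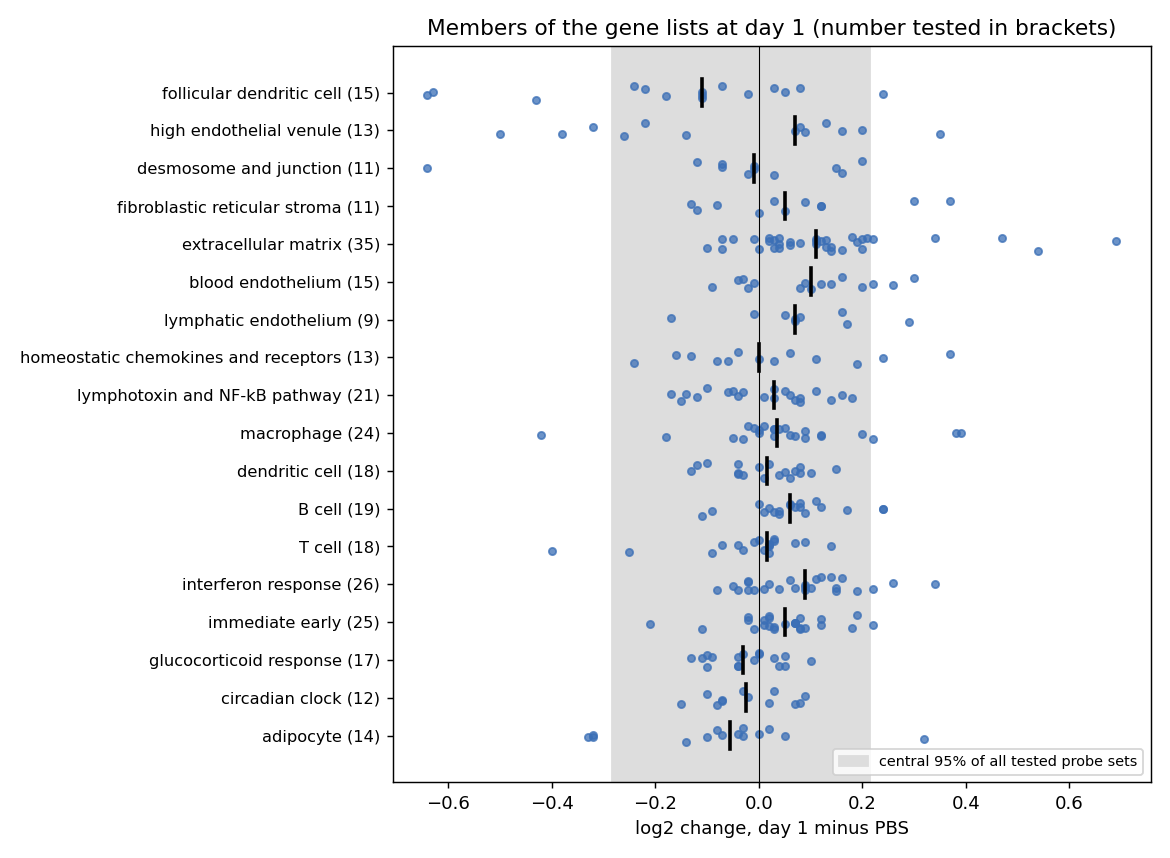
Log2 change from PBS to day 1 (x axis) of each tested member (points) of 18 gene lists (y axis, number tested in brackets), with the list's median as a black bar; the grey band, from -0.28 to 0.21, holds the central 95% of all tested probe sets. The follicular dendritic cell and junction lists reach to -0.64 through Dsc3 and the matrix list to 0.69 through Mgp, and the pathway, dendritic cell, glucocorticoid and clock lists stay inside the band.

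Genes that respond to handling, stress, interferon or the hour of harvest were listed as well, since the sources used here do not give the hour or day of harvest. Of 12 circadian clock genes, 17 glucocorticoid-responsive genes and 21 heat shock and chaperone genes 0 passed and 0 had an unadjusted p under 0.05 in limma, with medians of -0.023, -0.031 and 0.008. The clock gene Per2 stood at -0.15 (337.2 ± 30.4 and 306.2 ± 47.1 on array B, SD, n = 3 each), Per1 at -0.10 and the metallothionein Mt2 at -0.13. Of 25 immediate early genes 0 passed, with Myc (0.19) and Klf6 (0.18) higher at the unadjusted threshold (8%, against 1.94% of all named genes) and Fos at -0.21 (333.5 ± 13.8 and 289 ± 16.2). Of 26 interferon response genes 0 passed and 3 were higher at the unadjusted threshold (11.5%, against 1.94% of all named genes), Ifit3 (524.8 ± 54.9 and 662.4 ± 24.2, log2 change 0.34), Mx2 (0.16) and Oas1a (0.15). Of 24 cell cycle genes and 43 small respiratory chain subunits 0 passed at either threshold. Of 20 genes of cholesterol and fatty acid synthesis 0 passed and 1, Cyp51 (0.26), was higher at the unadjusted threshold (5%, against 1.94% of all named genes).

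Il22ra2 and Serpina10 did not pass at day 1 and fell at day 2 and day 3. Il22ra2, the secreted decoy receptor for interleukin 22, read 415.1, 421.3 and 346.6 in PBS and 267.5, 219.6 and 247.1 at day 1 on array B. No day 1 sample reached the lowest PBS sample (-0.69, SE 0.14, adjusted p = 0.323), and the adjusted p was 0.00839 at day 2 and 0.00283 at day 3. Serpina10, an inhibitor of coagulation proteases, read 479, 425.8 and 437.6 against 316, 340 and 310 (-0.47, SE 0.098, adjusted p = 0.167), and it passed after quantile normalization (0.0416) and scaling to a common median (0.0394). With single arrays left out its limma adjusted p at day 1 was 0.323 to 0.939. Its adjusted p was 0.0439 at day 2 and 0.0152 at day 3. The glutathione transferase Gsta3 was 427.4 ± 6.05 in PBS and 294.7 ± 7.28 at day 1 (SD, n = 3 each; -0.54, SE 0.14, adjusted p = 0.831, and 0.0415 in a fit of only these groups). With single arrays left out its limma adjusted p was 0.994 or above. Groups without overlap were frequent in these tables, at 444 probe sets lower (3.63%) and 873 higher (7.14%) for array A, and 1128 lower (9.01%) and 452 higher (3.61%) for array B.

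Several of the largest differences came from 1 probe set of a gene whose others gave unlike values. Rpusd2, a putative pseudouridine synthase, stood at -0.79 on 1 probe set of array B (493.2 ± 35.5 and 288.3 ± 49.3, SD, n = 3 each) and at -0.02 on its other. Ucma stood at -0.81 and 0.18, and AI662270 at -0.73 and -0.26. On array A the potassium channel gene Kcnj6 stood at 0.49 on 1 probe set and at -0.12 and -0.22 on the others, Ccdc88a at -0.56 against 0.03 and -0.15 on array B, and Kcnd3 at -0.51 against -0.05 on array B. The helicase gene Ddx39a ranged from 0.02 on its brightest probe set to 0.41 on its dimmest. The growth factor binding protein gene Igfbp4 was above 0 on all 6 of its probe sets (0.12 to 0.39). Fam216a (-0.51) and Prl8a6 (0.50) on array A and Lrrc52 (0.49), Tmed2 (0.42) and Gm38440 (0.37) on array B had 1 tested probe set, and Rpain stood at 0.41, 0.09 and -0.11. None of these passed, with limma adjusted p from 0.36 to 0.998.

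The day 2 samples were used to ask whether levels differed further from those of day 1. Their changes against PBS share the PBS samples with those of day 1, so the values are set side by side, and the test is day 2 against day 1 directly. Against PBS, 14 probe sets of array A (0.114%) and 3 of array B (0.024%) were called at day 2, and 68 (0.556%) and 10 (0.0799%) at day 3. Between day 2 and day 1 limma called 1 of 12231 probe sets of array A (0.00818%) and 0 of 12516 of array B (0%), with 242 (1.98%) and 248 (1.98%) at an unadjusted p under 0.05. The called one was Glycam1, which went from 4619 ± 239 at day 1 to 2688 ± 107 at day 2 (SD, n = 3 each; -0.78, SE 0.12, adjusted p = 0.0315). Against PBS it stood at -0.32, -1.10 and -1.58 on days 1, 2 and 3. The call ended with any 1 of the 6 day 1 and day 2 arrays left out (adjusted p 0.109 to 0.382) and with no filter (0.243).

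Dsc3 was dim at day 1 to day 3. Its samples of these days read 110.9 to 158.4 on array B, where the table's median is 157.9, and 165.8 to 218.5 on array A, where it is 286.7. Whether a further fall could be read at these levels was not tested. On array A its PBS samples, at 328.5, 279.5 and 277, already lay around that median. Among PBS to day 3 samples only 328.5 exceeded it, so the probe set was tested because arrays of day 27 or 35 also did. On array B Dsc3 stood at -1.30, -1.44 and -1.40 on days 1, 2 and 3, and day 2 differed from day 1 by -0.14 (SE 0.15, adjusted p = 1). On array A it stood at -0.64, -0.46 and -0.70. The probe set 1449277_at was alike, at -0.54, -0.50 and -0.58, and day 2 differed from day 1 by 0.03 (SE 0.084). Lum stood at 0.54, 0.50 and 0.83, Mgp at 0.69, 0.89 and 0.62, Il7 at 0.30, 0.35 and 0.33, Cd14 at 0.39, 0.32 and 0.31 and Serpina10 at -0.47, -0.52 and -0.54. Day 2 against day 1 missed the threshold for each of these genes (limma adjusted p = 1), which does not show that their levels had stopped moving.

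Mfge8 stood between these patterns, at -0.63, -1.16 and -1.32 on days 1, 2 and 3. Its day 2 samples (1548 ± 15.7, SD, n = 3) lay below all day 1 samples, a further -0.53 (SE 0.11) with an adjusted p of 0.667. Il22ra2 stood at -0.69, -0.95 and -1.03 and Ubd at -0.50, -0.63 and -0.68, with day 2 against day 1 at -0.27 and -0.12. Madcam1 stood at -0.22, -0.64 and -0.78 and Cxcl13 at -0.24, -0.57 and -0.67 on its brighter probe set, with day 2 against day 1 at -0.42 and -0.33 (limma adjusted p = 1 each). Whether these differences from day 1 to day 2 exceed that of Dsc3 was not tested.

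**Figure D5:**
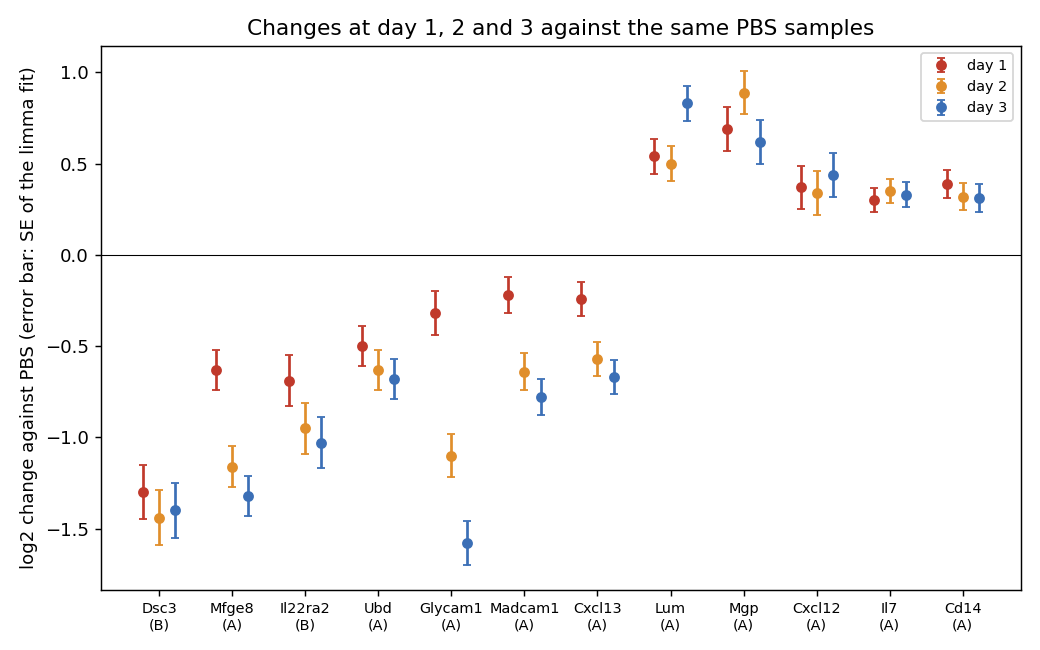
Log2 change against the same PBS samples (y axis, points) at day 1 (red), day 2 (orange) and day 3 (blue) for 12 genes (x axis, array in brackets), with the SE of the limma fit as bars. Dsc3 is at -1.30, -1.44 and -1.40, whereas Glycam1 goes from -0.32 to -1.10 and -1.58, and the genes on the right lie above 0 on all 3 days.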

How the data were processed

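Values are intensities as the authors deposited them, linear and 1 per probe set and array. No source used here gives their software, background correction or scaling. The 64 control probe sets of each array stayed out. Array A then held 22626 probe sets (20380 under 1 gene symbol, 691 under several, 1555 under none) and array B 22511 (14661, 245 and 7605), named from the platform annotation. Low intensities were raised to a floor, the 20th percentile of the table (array A 122.6, array B 76.57), before log2. A probe set was tested where 3 or more of the 18 arrays exceeded the median of the table. limma 3.58.1 (R 4.3.3; lmFit and eBayes with a mean-variance trend) fitted each table by itself, all 6 groups together and no covariates, so arrays of other days contribute to the spread. P-values are two-sided, Benjamini-Hochberg adjusted within table and contrast, and called at 0.05. For replicate 1 of day 1 on array B, the tissue field holds an unrelated phrase, and the group came from the title.

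Genes named are those of called probe sets, the 8 largest differences in each direction on array A and 4 on array B (no overlap, unadjusted p under 0.01), a fixed set, and up to 3 members of each list with the smallest p. Lyz2, Slc40a1, Mmp2 and Col5a1 were named after their values were seen. Tnfsf14, Ccl19, Ccl21a, Enpp2 and Chst4 of the fixed set had no tested probe set under 1 gene symbol and are not analysed here. Members, lists and tests were chosen with earlier results of these data known, and lists were described without a set test. The scripts were tested on simulated data. Alternatives covered scaling, floor, filter, variance model, array weights, groups fitted, a replicate block, the threshold and left-out arrays.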

Additional observations from a re-analysis of the deposited data

Results flagged for a closer look

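Glycam1 on array A was the 1 probe set whose change against PBS differed between day 1 and day 2 by a test of the difference itself, with a log2 value of -0.78 for day 2 minus day 1 (SE 0.12, limma adjusted p = 0.0315). Groups held 3 samples each, so outlying values of single samples were not searched for gene by gene. Whole arrays were compared with their group and left out 1 at a time.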

How the results depend on the processing

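On array A the count of 2 called probe sets at day 1 became 5 after quantile normalization, 5 after scaling to a common median, 0 with a floor at the 40th percentile, 4 with a stricter filter, 77 with array weights, 4 in a fit of only these groups and 5 at an adjusted p under 0.10. It was 0 with any 1 array left out, and 0 to 2 when arrays were also scaled to a common median. On array B the count of 1 became 5 with no filter, 152 with array weights and 1 to 4 with arrays left out, 4 without day 1 replicate 1 (3 with common median scaling). For day 2 against day 1 the count of 1 on array A became 6 with array weights, 2 in a fit of only these groups and 0 with any array left out, and that of 0 on array B became 1083 with array weights. The estimation of array weights stopped before it converged, so these counts carry that limit. Replicate numbers were not taken to pair the samples, since not every same-numbered correlation exceeded 0.1: same-numbered PBS and day 1 samples deviated from their group means with correlations of -0.06, -0.04 and -0.25 on array A and 0.36, 0.07 and 0.26 on array B, where each sample correlated best with its own number, a hint from the data and not the design. With the replicate number as a block, the count on array A was 3 and on array B 2 (1105 lower and 456 higher at an unadjusted p under 0.05, against 733 and 167 without it), with Dsc3 at an adjusted p of 0.0311 and 0.000108. The sign turned with single arrays left out, some after scaling to a common median, or under array weights for genes with an adjusted p of 0.772 or above: Dsg2 (0.03, 0.04, 0.06 and 0.07), Ltbr (-0.10, -0.08 and -0.03, with left-out arrays spanning -0.10 to 0.20), H2-DMa (-0.01), Xbp1 (0.00, from 0.12), Ctrb1 (-0.03 and -0.02) and H2-Ob (0.00, from -0.23). Of the 114 named probe sets, 111 kept their direction and side of the threshold after quantile normalization and 92 with array weights, where 21 came to pass.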
